A study of Sus scrofa with 23 samples.

Results

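The imprinted growth genes considered here were MEST, IGF2, H19, DLK1, MEG3, PEG3, PEG10, PLAGL1, GRB10 and CDKN1C, a list of 10 symbols looked up in the table that pairs transcripts with genes. The lookup found 9 of them among 26687 genes. H19 was not matched by symbol and is not analysed here. MEST was selected on its measured difference between libraries labelled CF and libraries labelled WT, so its levels are given as a description without a test, and nothing is tested between those groups for any member. The other members were listed for being imprinted genes with roles in growth.

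RNA-Seq was done on kidney cortex of 23 newborn pigs, which the labels divide into 11 CFTR-/- (CF), 6 CFTR+/- (HET) and 6 wild-type (WT) animals; HET and WT together formed the 12 non-CF libraries. The animals came from matings of CFTR+/- pigs and were studied within hours of birth, each library being an animal with a number of its own; sex and litter are not given in the labels. Pigs 1 to 6 and 12 to 18 are called earlier-numbered below (6 CF, 3 HET and 4 WT) and pigs 7 to 11 and 19 to 23 later-numbered (5 CF, 3 HET and 2 WT), since an earlier account of these data separated them by their RNA over all genes. Totals ran from 32901281 to 52952273 estimated counts per library, so that 3 counts corresponded to 0.0567 to 0.0912 CPM (counts scaled to a common library total). CFTR RNA itself was lowest in libraries labelled WT (0.263 to 0.729 TPM, a length-scaled share of all transcripts), higher in HET (1.88 to 3.15 TPM) and higher again in CF (2.28 to 5.28 TPM), which is opposite to a loss of the transcript, and directions below therefore refer to the labels. Kidney markers were present throughout, for example LRP2 of the proximal tubule at 248 to 474 TPM, UMOD of the loop of Henle at 101 to 314 TPM and NPHS1 of podocytes at 4.97 to 12 TPM.

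Imprinted genes are transcribed mainly from the allele inherited from a given parent, a choice kept by DNA methylation at control regions. Many of them act on fetal growth, with paternally expressed genes such as IGF2 tending to promote it and maternally expressed genes such as CDKN1C and GRB10 tending to restrain it. In several mammals a set of them is high in fetal organs and declines together after birth. The present data count RNA per gene and do not separate the parental alleles.

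All positions are on Sscrofa11.1, the build named for the files. MEST lies on the minus strand of chromosome 18 at chr18:18319126-18358655, 10.3 Mb from CFTR (chr18:28627717-28818209) with 103 annotated genes between them. IGF2 (chr2:1469183-1496417) and CDKN1C (chr2:2019391-2022092) share an imprinted region of chromosome 2 and are 523 kb apart, both on the minus strand. DLK1 (chr7:121565844-121577493) and MEG3 (chr7:121656253-121660495) are neighbours on chromosome 7 with 78.8 kb and no annotated gene between them. PEG10 (chr9:74474121-74486983) and GRB10 (chr9:136580363-136742552) are on the same chromosome but 62.1 Mb apart. PEG3 is at chr6:61281931-61307788 and PLAGL1 at chr1:21299830-21371070.

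The members differed in how many transcripts were annotated, from 1 each for PEG3, MEG3 and CDKN1C to 29 for PLAGL1, and starts within 500 bases of each other were taken as a start site. A start here is an annotated 5′ end, and where transcription begins was not measured. Upstream sequence is shown for the 3 MEST start sites with the most RNA and the leading IGF2 site, because MEST is the member that differed by label and IGF2 the most abundant. Each run is the 250 bases before the annotated 5′ end, read 5′ to 3′ on the minus strand from the RefSeq assembly and holding no annotated exon, with every CG pair, the site of DNA methylation, in capitals.
MEST, leading start site, chr18:18345893-18346142: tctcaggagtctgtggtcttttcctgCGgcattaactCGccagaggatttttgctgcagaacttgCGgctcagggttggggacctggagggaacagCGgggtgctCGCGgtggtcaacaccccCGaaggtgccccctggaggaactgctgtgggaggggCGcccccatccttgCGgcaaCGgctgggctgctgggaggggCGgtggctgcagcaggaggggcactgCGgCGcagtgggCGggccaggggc
MEST, start site with the next most RNA, chr18:18342434-18342683: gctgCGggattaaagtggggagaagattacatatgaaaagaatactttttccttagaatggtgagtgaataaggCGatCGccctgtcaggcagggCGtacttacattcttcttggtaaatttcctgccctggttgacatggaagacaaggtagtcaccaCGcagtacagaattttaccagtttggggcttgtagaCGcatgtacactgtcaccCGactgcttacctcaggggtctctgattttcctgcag
MEST, start site upstream of both, chr18:18351264-18351513: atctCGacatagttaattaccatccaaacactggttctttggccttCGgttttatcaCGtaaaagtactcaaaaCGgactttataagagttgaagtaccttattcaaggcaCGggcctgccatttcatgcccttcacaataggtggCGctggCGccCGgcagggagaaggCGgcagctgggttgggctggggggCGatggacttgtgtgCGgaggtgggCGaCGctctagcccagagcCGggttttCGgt
IGF2, leading start site, chr2:1478990-1479239: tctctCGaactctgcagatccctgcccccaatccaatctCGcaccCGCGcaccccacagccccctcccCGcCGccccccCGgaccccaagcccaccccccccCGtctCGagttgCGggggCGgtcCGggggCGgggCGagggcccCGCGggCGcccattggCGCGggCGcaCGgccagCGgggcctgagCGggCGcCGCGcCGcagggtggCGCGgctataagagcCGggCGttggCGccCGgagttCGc

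The IGF2 window held 34 CG pairs, and 7.74% of 19556 windows of the same length before protein-coding genes held as many or more. The windows of MEST held 14, 7 and 15 in the order shown, on both sides of the median of 12, with 45.7%, 66.3% and 43.0% of all windows holding as many or more. CG reads the same on either strand, and the count describes letters only, since methylation was not measured.

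**Figure D1:**
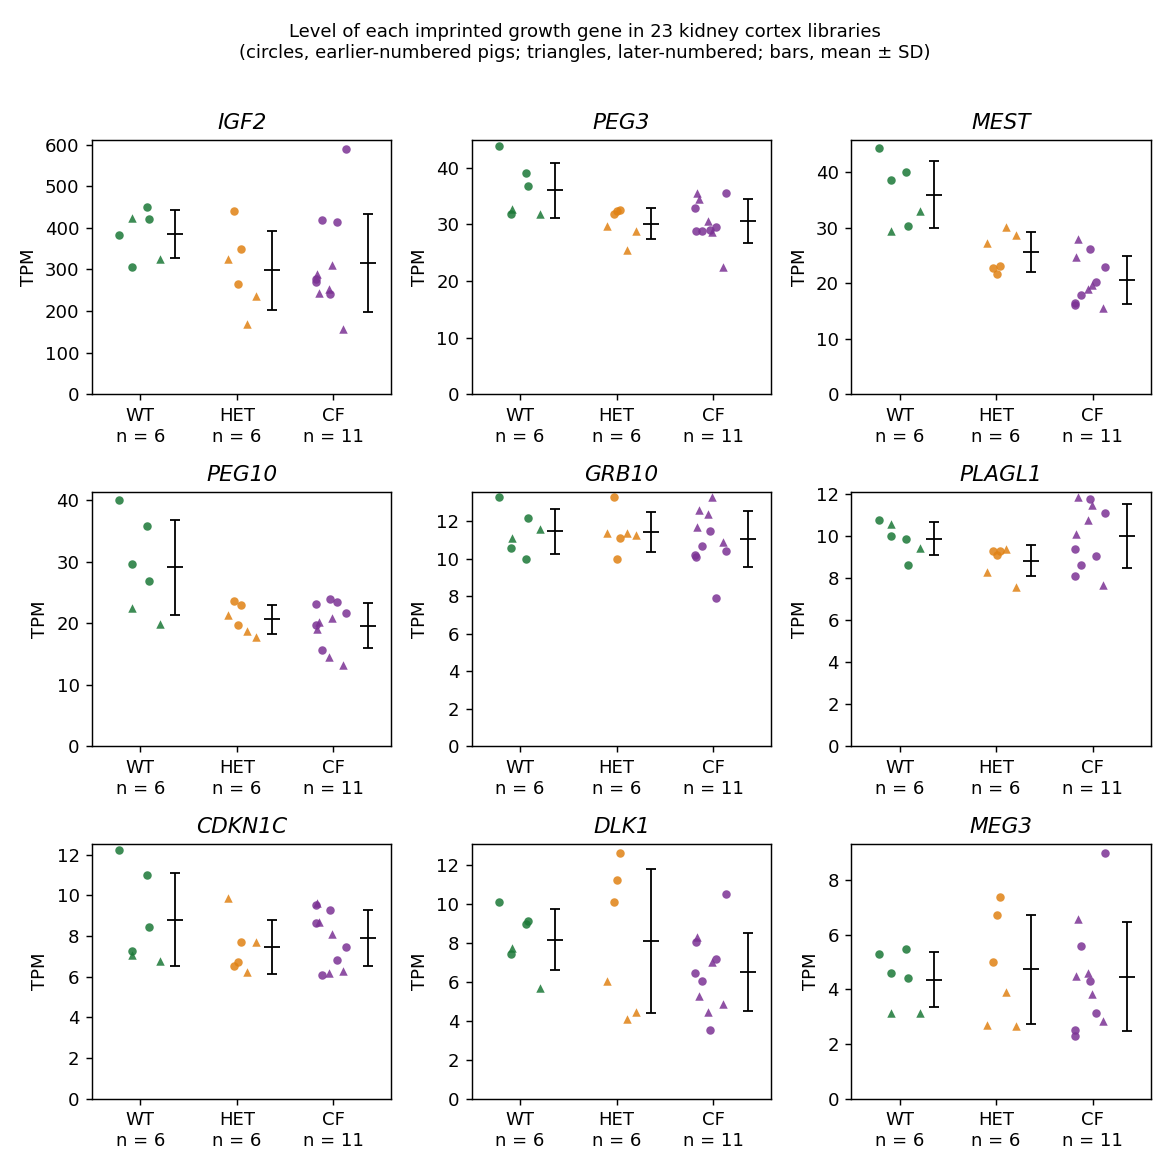
Level of each of the 9 imprinted growth genes in every library, in TPM from 0, by genotype label; circles are earlier-numbered and triangles later-numbered pigs, and bars give the mean ± SD. MEST separates WT (29.4 to 44.4 TPM) from CF (15.5 to 28.0 TPM), whereas the other members overlap between the labels.

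IGF2, the ligand of the list, was its most abundant transcript by a wide margin, and MEG3 its least. Per length, IGF2 averaged 329 ± 102 TPM (SD, n = 23) and ranked 170 among 20921 genes that passed the filter on low counts. PEG3 (31.9 ± 4.50), MEST (25.9 ± 7.82) and PEG10 (22.4 ± 6.17 TPM) followed, then GRB10 (11.3 ± 1.27), PLAGL1 (9.67 ± 1.25), CDKN1C (8.01 ± 1.65), DLK1 (7.35 ± 2.48) and MEG3 (4.50 ± 1.73 TPM). IGF2 was above PEG3, and PEG10 above GRB10, in 23 of 23 libraries. The other neighbours in this order changed places in some libraries, most often CDKN1C and DLK1, with CDKN1C the higher in 15 of 23. The levels spread over pigs unequally, the SD being 11.3% of the mean for GRB10, 12.9% for PLAGL1 and 14.1% for PEG3 but 38.3% for MEG3, 33.7% for DLK1, 31.0% for IGF2 and 30.1% for MEST. All 9 passed the filter, and the lowest count of any member in a library was 131, for MEG3.

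MEST, a paternally expressed gene that encodes a protein of the alpha/beta hydrolase fold, was highest in libraries labelled WT and lowest in those labelled CF. The 6 WT libraries lay between 29.4 and 44.4 TPM with a median of 35.9 (mean 36 ± 5.98), the 6 HET libraries between 21.7 and 30.1 TPM with a median of 25.2 (25.6 ± 3.53), and the 11 CF libraries between 15.5 and 28.0 TPM with a median of 19.6 (20.6 ± 4.28). Thus every CF library was below every WT library, and HET lay between them and overlapped both. Because this contrast chose MEST, the separation is descriptive; 0.287% of all genes had every CF library below every WT library in TPM. The log2 fold change of counts was -0.81 (SE 0.124) for CF against WT, -0.55 (SE 0.144) for HET against WT and -0.26 (SE 0.125) for CF against HET.

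The count scale separated the labels less cleanly. In CPM, WT libraries spread from 105 to 222, HET from 96.2 to 109.5 and CF from 66.0 to 115, so that pigs 22 and 23 of the WT group (105 and 113 CPM) fell among the others while 0.134% of all genes separated CF below WT completely. A transcript with a last exon of 12714 bases, XM_005673163.3, took 64.4% of all MEST counts but 20.8% of MEST TPM. That exon shares 619 bases with exons of COPG2 and 4999 with an uncharacterised gene, LOC110257546, both on the opposite strand, and no other MEST transcript overlaps either. Use of strand in the counting is not given in the sources used here, so reads in the shared stretch cannot be assigned to a strand. Without this transcript, MEST had 22.8 to 34.7 TPM in WT, 17.1 to 25.0 in HET and 12.8 to 20.9 in CF, again with every CF library below every WT library, and the log2 fold changes of counts became -0.68 (SE 0.0940) for CF against WT, -0.31 (SE 0.109) for HET against WT and -0.37 (SE 0.0948) for CF against HET. COPG2 averaged 20, 20.3 and 19.7 TPM in CF, HET and WT.

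**Figure D2:**
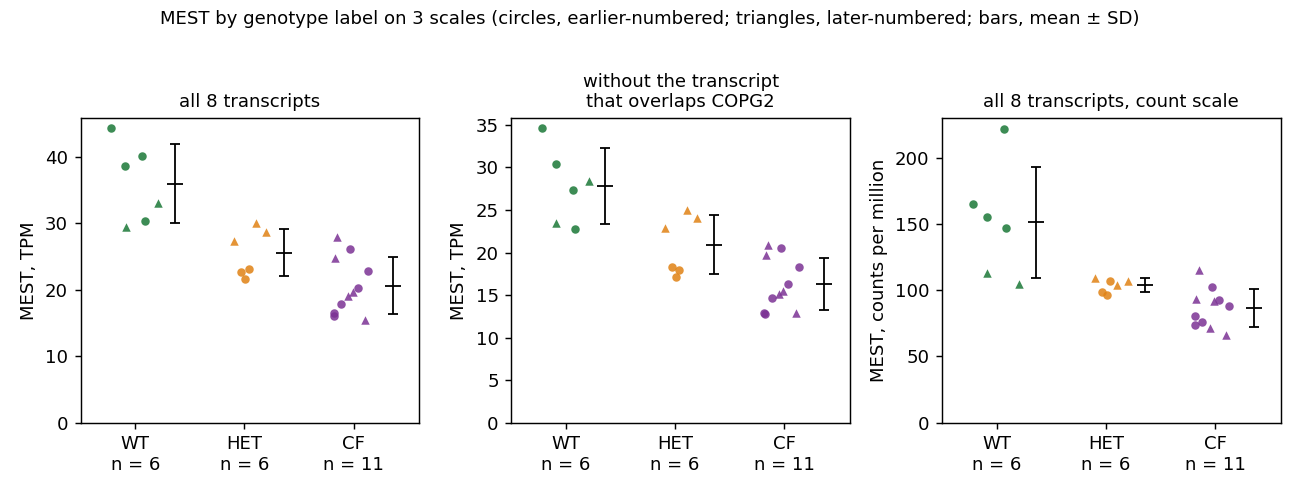
MEST in each library by genotype label as TPM over all 8 transcripts, as TPM without the transcript that overlaps COPG2, and as CPM; axes start at 0 and bars give the mean ± SD. On both TPM scales the CF libraries (highest 28.0 and 20.9) stay under the WT libraries (lowest 29.4 and 22.8), and in CPM the WT pigs 22 and 23 overlap CF.

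MEST was also described within each set of pig numbers. Among earlier-numbered pigs the means were 38.4 ± 5.92 TPM in 4 WT, 22.5 ± 0.714 in 3 HET and 20 ± 3.97 in 6 CF libraries, and among later-numbered pigs 31.3 ± 2.62 in 2 WT, 28.7 ± 1.39 in 3 HET and 21.4 ± 4.99 in 5 CF libraries. HET was thus near CF in the earlier-numbered pigs and near WT in the later-numbered. On the count scale, CF against WT was -1.01 in the earlier-numbered and -0.30 in the later-numbered pigs, and HET against WT was -0.78 and -0.02. CF against HET was -0.23 and -0.28.

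The RNA of MEST by start site kept nearly the same proportions in each genotype label. The leading site, with 3 transcripts starting between 18345501 and 18345892, held 56.8% ± 3.71 of MEST TPM in WT, 53.5% ± 3.19 in HET and 53.8% ± 4.55 in CF. Its level fell in the same order, 20.5 ± 3.88, 13.6 ± 1.30 and 11.2 ± 2.89 TPM. The curated RefSeq transcript NM_001128471.1, which starts at 18342433, gave 9.78 ± 2.15, 8.14 ± 2.10 and 5.73 ± 1.24 TPM in WT, HET and CF, and the upstream start at 18351263 gave 4.76 ± 1.32, 3.16 ± 1.07 and 3.32 ± 1.37 TPM. The remaining starts averaged 0.430 TPM or less. Transcripts of a gene share most of their exons, so these divisions are estimates whose error beyond the spread over pigs is unknown. The annotated 5′ end at 18342433 lies within the span of the other MEST transcripts, so RNA assigned to it need not begin there.

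A list of loop of Henle and distal tubule markers (UMOD, SLC12A1, SLC12A3 and CALB1) summed to less on average in CF than in WT. That is the direction of MEST. The sum was 597 to 965 TPM in WT, 443 to 1101 in HET and 407 to 619 in CF, with HET overlapping both. Of the 4 markers, 3 were lower on average in CF than in WT. UMOD was the exception, at 207 TPM in CF and 154 in WT. Over all 23 libraries the log2 sum of this list had r = 0.44 and rho = 0.60 with MEST, r = 0.55 without the 2 libraries farthest from the median, 0.74 in the earlier-numbered and 0.55 in the later-numbered pigs. Stroma and mesenchyme markers, such as COL3A1 and DCN, summed to 604 to 1297 TPM in WT against 652 to 896 in CF, with the highest sums in WT pigs 17 (1297) and 12 (1046), which also had high MEST, and their log2 sum had r = 0.41 and rho = 0.04 with MEST, with r = -0.09 without the 2 farthest. Collecting duct markers summed to 169 to 251 TPM in WT and 135 to 215 in CF with 3 of 4 lower on average in CF, endothelial markers to 137 to 183 and 118 to 155 TPM with 4 of 4 lower, and nephron progenitor markers to 18 to 24.2 and 12.5 to 24.1 TPM with 5 of 6 lower. These directions are of mean TPM. In fitted counts for CF against WT, 3 of 4 collecting duct, 3 of 4 endothelial and 5 of 6 nephron progenitor markers were lower. Over all genes that share was 50.4%. No marker of the lists in this paragraph passed an adjusted p of 0.05 in CF against non-CF by edgeR, the lowest being 0.0636. The share of all genes that passed was 0.349%. With MEST, the collecting duct list had r = 0.47 (0.21 without the 2 farthest), the nephron progenitor list 0.47 (0.25) and the endothelial list 0.28 (0.16). In these bulk samples fewer cells of a type and less RNA per cell cannot be told apart, and the part of these markers in the MEST difference was not tested. No marker in these lists was below 0.5 TPM in all libraries.

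The 5 genes whose log2 CPM followed MEST most closely over the 23 libraries were LOC110257546 (Pearson's r = 0.90), FANCC (0.85), NOS1 (0.83), LOC110261384 (0.81) and ARHGEF10 (0.80). LOC110257546 is the gene that shares 4999 exon bases with MEST and had 3.49, 2.16 and 1.94 TPM on average in WT, HET and CF. The other 4 lie on other chromosomes. These values are descriptions over libraries that also share genotype and numbering.

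MEST is on the chromosome of CFTR, and the genes around both were described for CF against WT. An allele of MEST can be inherited together with the disrupted CFTR allele. Alleles of MEST were not measured, so this cannot be told apart from the genotype label and was not tested. Leaving out MEST, CFTR and LOC110257546, a choice made after seeing the data, 189 genes within 15 Mb of CFTR were tested, of which 92 were higher and 97 lower in CF, and 10 of them (5.29%) had a difference of 0.5 or more in either direction, beside 4.92% of all 20921 genes. With those genes included it was 13 of 192 (6.77%). MEST ranked 4 of 474 by the size of the change, after CFTR itself (3.14, SE 0.188), GPR37 (-1.06, SE 0.159), which encodes an orphan receptor 5.69 Mb from CFTR on the MEST side, and AQP1 (0.93, SE 0.187), the water channel of the proximal tubule, 13.35 Mb away on the other side. LOC110257546 (-0.79, SE 0.191), INMT (0.79, SE 0.368) and WNT2 (0.60, SE 0.366) completed the 5 largest within 15 Mb of CFTR, leaving out MEST and CFTR. The genes next to CFTR were CTTNBP2 (-0.17, SE 0.0660) and WNT2, and next to MEST were LOC110257546 and LOC102162156 (-0.07, SE 0.225), the latter at 0.164, 0.176 and 0.180 TPM on average in CF, HET and WT. Within 2 Mb of MEST, leaving out MEST and LOC110257546, 31 of 49 genes were lower in CF, with a median of -0.07, beside 50.4% of all genes. The rule that chose MEST used this contrast, and 0.349% of all genes passed the adjusted threshold of 0.05 in it. Within 15 Mb of CFTR, leaving out MEST, CFTR and LOC110257546, 2 of 189 genes (1.06%) passed. Farther away on the chromosome 0 of 282 passed.

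**Figure D3:**
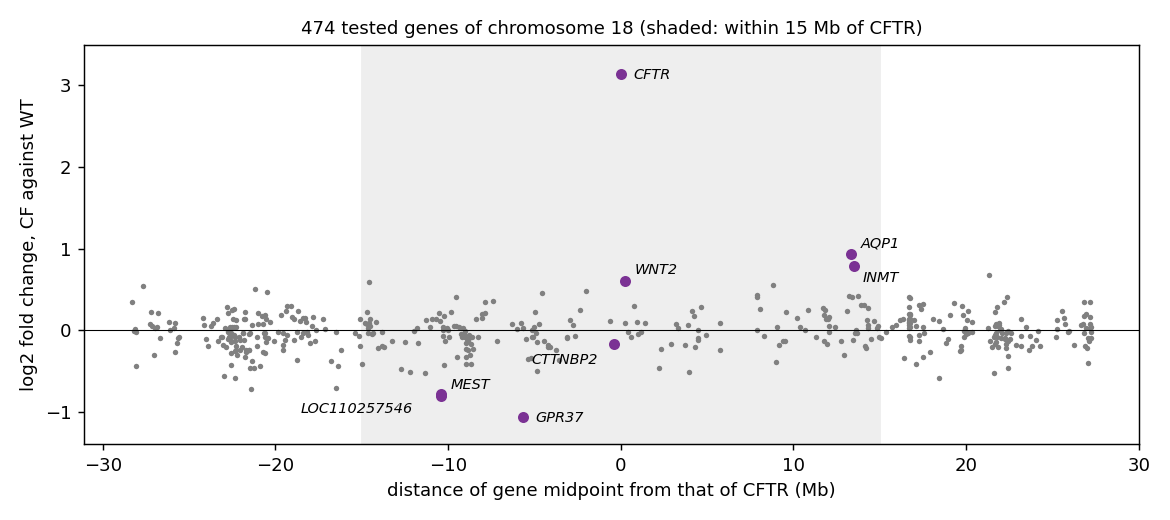
log2 fold change of CF against WT for 474 tested genes of chromosome 18 (y axis) by the distance of each gene's midpoint from that of CFTR in Mb (x axis); the shaded band is 15 Mb on each side and named genes are in purple. CFTR (3.14) stands above the rest, MEST (-0.81) and GPR37 (-1.06) lie below most genes on its left, and AQP1 (0.93) lies above on its right.

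For the 8 members that were not chosen by a genotype difference, CF was compared with non-CF, CF with HET and HET with WT by edgeR's quasi-likelihood test over all 20921 genes. None of the 8 passed an adjusted p of 0.05 in any of these. In CF against non-CF, 73 genes (0.349% of those tested) passed; in CF against HET 0 passed (0%), with 2069 at an unadjusted p under 0.05 and 65 passing by DESeq2; and in HET against WT 1 passed (0.00478%). In CF against non-CF 1 of the 8 had an unadjusted p under 0.05, beside 13.7% of all genes, in CF against HET 1, beside 9.89%, and in HET against WT 0, beside 7.99%. The members' median log2 fold change in CF against non-CF was -0.06, with 7 lower and 1 higher, and that of all genes -0.001. The median size regardless of direction was 0.09 for the members and 0.09 for all genes. In simulated counts with 200 of 20921 genes changed by 2-fold, the same test recovered 93% of them in CF against non-CF. The share was 86% in CF against HET, and it was 80.5% in HET against WT. Of the calls in those simulations, 7%, 4.44% and 2.42% were of genes left unchanged. Recovery of differences smaller than 2-fold was not tested. Among the 8 members, the log2 fold change largest in size in CF against non-CF was -0.36, for DLK1, which is smaller than 2-fold. These shares therefore do not show how often differences of the members' size would be found.

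**Figure D4:**
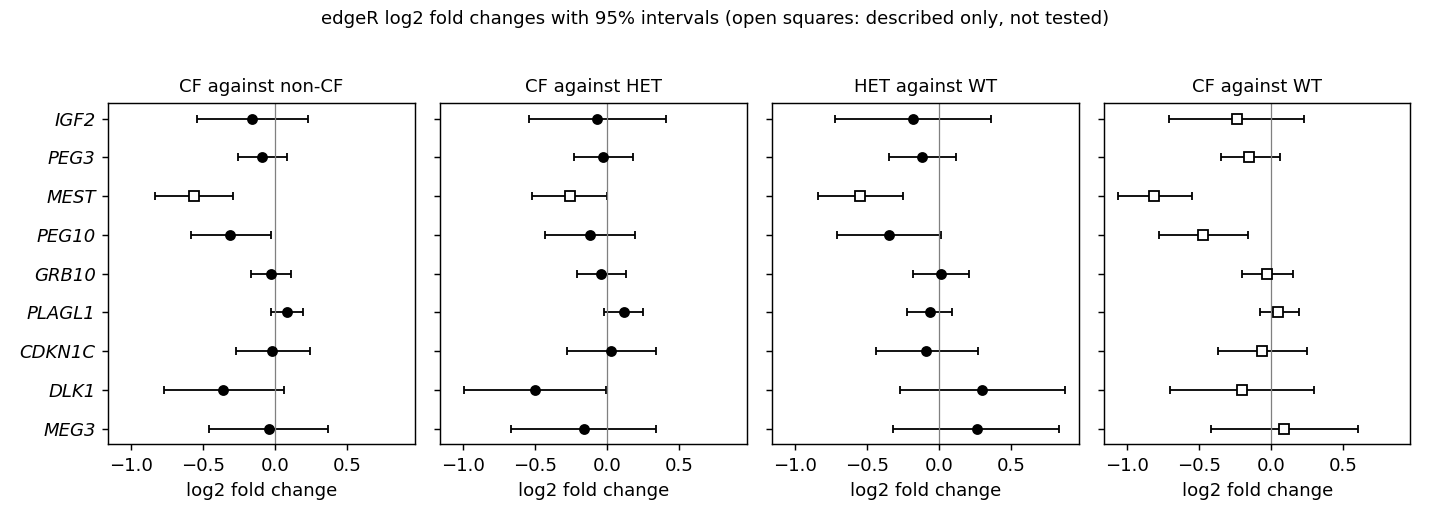
log2 fold changes of the 9 genes in 4 comparisons, with 95% intervals from edgeR; filled circles were tested, open squares are described only. Each tested interval in CF against non-CF covers 0 apart from that of PEG10 (-0.58 to -0.03), whose adjusted p was 0.301, and MEST lies to the left of 0.

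PEG10, a paternally expressed gene derived from a retrotransposon and needed in the placenta, was the tested member with the smallest unadjusted p in CF against non-CF. It lay between 19.9 and 40.0 TPM (median 28.3) in WT, between 17.7 and 23.7 (median 20.5) in HET and between 13.3 and 23.9 (median 20.2) in CF. WT pigs 12, 16, 17 and 18 were above all CF libraries, and WT pigs 22 and 23 were within the CF range. CF against non-CF gave a log2 fold change of -0.31 (SE 0.133, p = 0.0300, adjusted p = 0.301 by edgeR) and HET against WT -0.35 (SE 0.173, adjusted p = 0.625 by edgeR), whereas CF against HET was -0.12 (95% interval -0.43 to 0.19). For CF against WT, described only, it was -0.47 (SE 0.150). The 4 high WT libraries are the earlier-numbered ones, in which PEG10 averaged 33.1 ± 5.91 TPM against 21.2 ± 1.82 in the 2 later-numbered WT libraries.

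IGF2 varied widely within every label. It was 305 to 450 TPM in WT (median 402), 168 to 441 in HET (median 295) and 157 to 590 in CF (median 277), the highest library being CF pig 3 and the lowest CF pig 9. The groups overlapped throughout, and CF against non-CF was -0.16 (95% interval -0.54 to 0.23, adjusted p = 0.779 by edgeR), a range from 0.686-fold to 1.17-fold. CF against HET was -0.07 (adjusted p = 0.954 by edgeR) and HET against WT -0.18 (adjusted p = 0.897 by edgeR). Of its 7 start sites, the leading site at 1478989 carried 39.9% ± 5.4 of IGF2 TPM (SD, n = 23) and the site at 1475199 carried 22.6% ± 4.78. The site farthest upstream, with starts between 1496147 and 1496417, ranged from 4.20 to 84.9 TPM over pigs. The site at 1485596 gave 20.1 to 59.7 TPM in HET, 8.01 to 40.7 in WT and 7.23 to 29.3 in CF, so that HET was the highest on average and the labels overlapped. The site with starts between 1480438 and 1480718 went the other way, at 14.5 to 29.1 TPM in HET, 32.3 to 51.9 in WT and 26.8 to 114 in CF. There every HET library was below every WT library, and CF overlapped both. Over whole genes in CPM, 0.306% of all had every HET library below every WT library, and the share over start sites is not given here. These start sites were not tested. Among the 5 genes most like IGF2 in log2 CPM were PLXNA1 (r = 0.81), PITPNM1 (0.80), ANKRD52 (0.80) and ARHGEF15 (0.79), again as a description.

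CDKN1C and GRB10, growth restraints of the list, had overlapping levels under all labels. CDKN1C, an inhibitor of cyclin-dependent kinases, lay at 6.78 to 12.2 TPM in WT (median 7.84), 6.24 to 9.85 in HET (median 7.21) and 6.08 to 9.60 in CF (median 8.11), with CF against non-CF at -0.02 (95% interval -0.27 to 0.24, adjusted p = 0.974 by edgeR). GRB10, an adaptor that dampens insulin and IGF1 receptor signalling, lay at 10 to 13.3 TPM in WT and in HET, each with a median of 11.3, and at 7.89 to 13.3 in CF (median 10.9), with CF against non-CF at -0.03 (95% interval -0.17 to 0.11, adjusted p = 0.893 by edgeR). For GRB10 these bounds correspond to 0.889-fold and 1.08-fold. CF pig 4 was the lowest GRB10 library.

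DLK1 and MEG3 come from the same imprinted domain but from opposite parental alleles, DLK1 encoding a transmembrane and secreted protein of the epidermal growth factor-like family and MEG3 a long noncoding RNA. DLK1 lay at 5.65 to 10.1 TPM in WT (median 8.34), 4.07 to 12.6 in HET (median 8.09) and 3.53 to 10.5 in CF (median 6.47). The HET libraries split into pigs 13, 14 and 15 (11.2, 10.1 and 12.6 TPM) and pigs 19, 20 and 21 (4.07, 4.44 and 6.06 TPM), the earlier-numbered being the higher. CF against non-CF was -0.36 (95% interval -0.77 to 0.06, adjusted p = 0.450 by edgeR) and CF against HET -0.50 (SE 0.240, p = 0.0475, adjusted p = 0.5 by edgeR). Within the later-numbered pigs CF against non-CF was 0.03. MEG3 lay at 3.14 to 5.47 TPM in WT, 2.66 to 7.38 in HET and 2.28 to 8.98 in CF, with CF pig 3 the highest, and CF against non-CF was -0.04 (95% interval -0.46 to 0.37, adjusted p = 0.963 by edgeR).

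PEG3 and PLAGL1 encode zinc-finger proteins expressed mainly from the paternal allele. PEG3 lay at 31.8 to 43.9 TPM in WT (median 34.8), 25.4 to 32.6 in HET (median 30.9) and 22.5 to 35.5 in CF (median 29.6), with CF against non-CF at -0.09 (95% interval -0.26 to 0.08, adjusted p = 0.697 by edgeR). PLAGL1 was the tested member with a higher level in CF, at 7.67 to 11.9 TPM (median 10.1) against 7.57 to 9.41 in HET (median 9.20) and 8.63 to 10.8 in WT (median 9.95). Its log2 fold change was 0.08 in CF against non-CF (95% interval -0.03 to 0.19, adjusted p = 0.529 by edgeR) and 0.12 in CF against HET (adjusted p = 0.584 by edgeR).

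Several members were lower in the later-numbered pigs, given here as levels without a test. DLK1 averaged 8.55 ± 2.45 TPM in 13 earlier-numbered and 5.78 ± 1.47 in 10 later-numbered libraries, IGF2 371 ± 99.3 and 274 ± 79.5, PEG10 25.1 ± 6.67 and 18.8 ± 2.94, and MEG3 5.06 ± 1.90 and 3.78 ± 1.21 TPM. GRB10 (10.9 ± 1.47 and 11.8 ± 0.750) and PLAGL1 (9.63 ± 1.06 and 9.72 ± 1.52) were close. The proximal tubule markers LRP2, CUBN, SLC34A1 and SLC5A2, chosen after the values were seen, summed to 921 ± 133 TPM in the earlier-numbered and 1053 ± 127 in the later-numbered pigs, and stroma markers to 840.4 ± 173 and 675 ± 56.8 TPM. Their part in the members' levels was not tested. The difference of the CF effect between later-numbered and earlier-numbered pigs was largest in size for MEG3 (interaction 0.82, SE 0.337, p = 0.0234, adjusted p = 0.392 by edgeR), for which CF against non-CF was -0.31 in the earlier-numbered and 0.51 in the later-numbered pigs. DLK1 was next in size (interaction 0.56, SE 0.351, adjusted p = 0.615 by edgeR). The smallest p was that of GRB10 (interaction 0.31, SE 0.122, p = 0.0180, adjusted p = 0.370 by edgeR), at -0.17 and 0.14. The interaction passed for 0 of the 8 members, beside 4 of all 20921 genes (0.0191%), and 2 of the 8 had an unadjusted p under 0.05, beside 10.1% of all genes.

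Pairs of members were mostly positively related across pigs. Of the 28 pairs that do not hold MEST, 26 had a positive Pearson's r of log2 CPM over the 23 libraries, beside 49.3% of all pairs among 20921 genes, and 8 passed an adjusted p of 0.05 in a permutation test of 100000 resamples, two-sided, with adjustment over the 36 pairs of 9 genes and likewise over the 28. How many of all gene pairs would pass is not given here, so the 8 have no background to be set beside. The test shuffled all 23 libraries without regard to numbering. Within the earlier-numbered or the later-numbered pigs alone, which have fewer libraries, none passed. PEG3 and PEG10 were each in 4 of the 8 pairs, DLK1 and IGF2 in 3 each and CDKN1C in 2. The sum of the 4 proximal tubule markers named above was negatively related to several members over all 23 libraries, with r = -0.63 for IGF2, -0.52 for DLK1, -0.42 for PEG3, -0.39 for MEG3 and -0.27 for PEG10, given without a test. Within the earlier-numbered and later-numbered pigs r was -0.46 and -0.62 for IGF2 and -0.43 and -0.30 for DLK1, but -0.06 and -0.58 for PEG3, and the sign turned for MEG3 (-0.61 and 0.65) and PEG10 (0.32 and -0.52). The part of these markers in the members' relations was not tested. The closest pair was DLK1 and PEG3 (r = 0.75, permutation p = 5.0e-05, adjusted 0.000840; Spearman's rho = 0.78, permutation p = 2.0e-05, adjusted 0.000720), with r = 0.72 without the 2 libraries farthest from the median of DLK1, 0.63 in the earlier-numbered and 0.77 in the later-numbered pigs. PEG3 and PEG10 followed (r = 0.74, permutation p = 4.0e-05, adjusted 0.000840; rho = 0.76, permutation p = 6.0e-05, adjusted 0.00108), with r = 0.81 without the 2 farthest, 0.66 and 0.60 within the numberings. IGF2 correlated with PEG3 (r = 0.71, permutation p = 0.000220, adjusted 0.00180; rho = 0.68, permutation p = 0.000670, adjusted 0.00603; 0.57 without the 2 farthest) and with DLK1 (r = 0.70, permutation p = 0.000250, adjusted 0.00180; rho = 0.71, permutation p = 0.000240, adjusted 0.00288; 0.65 without the 2 farthest). Within the earlier-numbered and later-numbered pigs these were 0.53 and 0.78 for PEG3 and 0.55 and 0.75 for DLK1. The relations of PEG10 with DLK1 (r = 0.55, permutation p = 0.00768, adjusted 0.0346; rho = 0.60, permutation p = 0.00338, adjusted 0.0174) and with IGF2 (r = 0.52, permutation p = 0.0106, adjusted 0.0425; rho = 0.50, permutation p = 0.0166, adjusted 0.0663) did not hold in the earlier-numbered pigs, where r was 0.20 and 0.09 against 0.78 and 0.71 in the later-numbered, and r was 0.62 and 0.42 without the 2 farthest.

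CDKN1C, although maternally expressed, was positively related to the paternally expressed PEG3 (r = 0.68) and PEG10 (r = 0.68), each with permutation p = 0.000370 and adjusted 0.00190, at rho = 0.62 (permutation p = 0.00187, adjusted 0.0135) and 0.60 (permutation p = 0.00269, adjusted 0.0161). Without the 2 farthest libraries r was 0.70 and 0.55, in the earlier-numbered pigs 0.60 and 0.68, and in the later-numbered 0.76 and 0.68. MEST had r = 0.72 with PEG10, which was 0.58 after the mean of each genotype label was taken away; since MEST differs by label, no p is given. Sharing a chromosome region did not mark the closest pairs. IGF2 and CDKN1C had r = 0.22 (permutation p = 0.305, adjusted 0.506) and rho = 0.12 (permutation p = 0.569, adjusted 0.784), with 0.05 without the 2 farthest, -0.16 in the earlier-numbered and 0.42 in the later-numbered pigs. DLK1 and MEG3 had r = 0.49 (permutation p = 0.0183, adjusted 0.0659) and rho = 0.46 (permutation p = 0.0272, adjusted 0.0889), with 0.40 without the 2 farthest, 0.51 in the earlier-numbered and -0.10 in the later-numbered pigs.

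**Figure D5:**
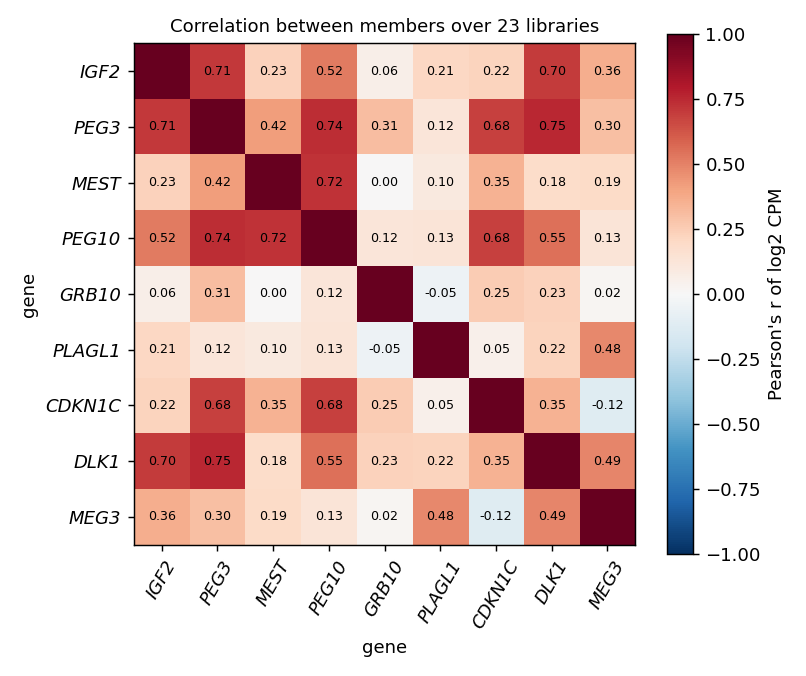
Pearson's r of log2 CPM between each pair of the 9 genes over 23 libraries, on a scale from -1 (blue) to 1 (red), with r printed in each cell. Pairs among PEG3, PEG10, DLK1 and IGF2 are red (0.52 to 0.75), as are MEST with PEG10 (0.72) and CDKN1C with PEG3 and PEG10 (0.68 each), and GRB10 is pale with all others (-0.05 to 0.31).

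The share of a gene's RNA held by its most abundant transcript was compared between CF and non-CF for 5 members with several transcripts, and 0 of the 5 passed. The nearest was DLK1, whose transcript NM_001126101.1 held 73.0% ± 5.71 in 11 CF and 67.5% ± 7.54 in 12 non-CF libraries (permutation p = 0.0658, adjusted 0.329, two-sided). For IGF2, PEG10, PLAGL1 and GRB10 the adjusted permutation p was 0.892. The 4 PEG10 transcripts form 2 pairs with identical estimates in every library and were joined pairwise. In MEST, described only, NM_001128471.1 held 28.4% ± 5.70 in CF and 29.4% ± 5.08 in non-CF libraries.

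Other imprinted genes were looked at from a list of 55 symbols, of which 48 were annotated and 44 tested. In CF against non-CF, 24 were higher and 20 lower, 0 passed an adjusted p of 0.05 by edgeR, beside 0.349% of all genes, and the median log2 fold change was 0.02. An unadjusted p under 0.05 was given for 2 of the 44, beside 13.7% of all genes. The 5 with the smallest p were DIRAS3, a growth-restraining small GTPase (0.50, SE 0.127, adjusted p = 0.0725 by edgeR; 19, 14.8 and 12.7 TPM in CF, HET and WT), NAP1L5 (-0.28, adjusted p = 0.194 by edgeR), DIO3, the deiodinase that inactivates thyroid hormone and lies in the domain of DLK1 and MEG3 (0.95, SE 0.464, adjusted p = 0.371 by edgeR, 0.185, 0.119 and 0.0814 TPM in CF, HET and WT), OSBPL5 (0.19, adjusted p = 0.414 by edgeR) and ZIM2 (-0.48, adjusted p = 0.431 by edgeR). By DESeq2 1 of the 44, DIRAS3, passed (adjusted p = 0.0122), beside 515 of all 20921 genes (2.46%).

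The IGF axis, through which IGF2 acts, was measured by 23 listed receptors, binding proteins and regulators, of which 22 were tested. In CF against non-CF, 15 were higher and 7 lower with a median of 0.07, 0 passed by edgeR and 3 of the 22 had an unadjusted p under 0.05, beside 0.349% and 13.7% of all genes. PAPPA2, a protease that frees IGF from its binding proteins, averaged 3.49, 5.81 and 7.62 TPM in CF, HET and WT and had a log2 fold change of -0.94 (SE 0.220, adjusted p = 0.0531 by edgeR); by DESeq2 its adjusted p was 0.00811, and it was the 1 gene of the 22 that passed, beside 2.46% of all genes. INSR, the insulin receptor, was at 0.33 (adjusted p = 0.139 by edgeR), IGFALS, which holds IGF in circulating complexes, at 0.38 (adjusted p = 0.283), STC2, an inhibitor of the PAPPA proteases, at 0.31 (adjusted p = 0.380) and PAPPA at 0.28 (adjusted p = 0.382). IGF1R, the signalling receptor for IGF2, averaged 91.1, 82.3 and 85.7 TPM in CF, HET and WT, and IGF2R, the imprinted receptor that clears IGF2, 64.7, 61.8 and 63.9 TPM, with log2 fold changes of 0.16 (adjusted p = 0.489) and 0.07 (adjusted p = 0.835).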

How the data were processed

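RNA of newborn pig kidney cortex was sequenced by the authors from ribosomal RNA-depleted, stranded libraries and quantified per transcript with kallisto against Sscrofa11.1. The deposited files give estimated counts and TPM for 77689 transcripts. Both were summed per gene symbol, and the summed estimated counts were rounded. The members and the gene lists were chosen with earlier results of these data known. Genes passing filterByExpr (20921) were fitted with edgeR 4.0.16 (TMM, quasi-likelihood test, Benjamini-Hochberg adjustment over all genes, two-sided), with DESeq2 1.42.0, limma 3.58.1 on voom weights or on log2(TPM + 0.5), an exact Mann-Whitney U test, other normalizations, a numbering term and left-out libraries as alternatives. The method was tested on simulated data. log2 CPM used a prior count of 2. TPM levels describe, and counts were tested. p-values measure the spread between pigs. From the other imprinted and IGF axis lists, genes passing in CF against non-CF were to be named, otherwise the 5 with the smallest p; named as well were the genes beside MEST and CFTR, the 5 largest changes within 15 Mb of CFTR, the 5 genes most like MEST and IGF2, and up to 3 of each marker list. A gene most like IGF2 and the sum of the whole proximal tubule list are not reported here, and 4 of that list's markers were summed instead. Intervals of fold changes are edgeR's and include the spread between pigs. The 3-count floor covers counting error only, and kallisto's uncertainty between overlapping transcripts was not used here.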

Additional observations from a re-analysis of the deposited data

How the results depend on the processing

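None of the 8 tested members passed an adjusted p of 0.05 in any alternative run for CF against non-CF, CF against HET or HET against WT, nor with any library left out. Every member had 131 counts or more in every library. No paired analysis was possible because the labels do not give litter, by which the paper paired CF and WT piglets in its metabolite measurements. Relatedness of littermates was therefore not part of any test. Over all genes, CF against non-CF gave 73 calls by edgeR, 515 by DESeq2, 46 by limma-voom, 29 by the exact Mann-Whitney U test, 148 with numbering as a term, 0 in earlier-numbered and 473 in later-numbered pigs, and 17 (without HET pig 21) to 203 (without CF pig 4) with a library left out. CF against HET gave 0 calls by edgeR, 65 by DESeq2, 535 in later-numbered pigs and 0 to 5 otherwise; HET against WT gave 1 by edgeR, 33 by DESeq2, 14 in earlier-numbered and 18 in later-numbered pigs and 1 to 4 otherwise. Of the other imprinted genes 1 was called by DESeq2 and with the numbering term (DIRAS3) and 1 in later-numbered pigs alone (OSBPL5), and 0 to 1 with a library left out, DIRAS3 being called without CF pig 4 or HET pig 15. Of the IGF axis 1 was called by DESeq2, upper-quartile normalization and the numbering term (PAPPA2) and 1 in later-numbered pigs alone (INSR), and 0 to 1 with a library left out, PAPPA2 being called without CF pig 4, 8 or 10 or HET pig 13 or 15. Correlated pairs without MEST numbered 8, and 7 on log2(TPM + 0.5), 8 with label means removed and 8 with adjustment over the 28 pairs alone (the last pair of alternatives chosen after seeing the data), but 0 in earlier-numbered and 0 in later-numbered pigs, which have fewer libraries.

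Signs turned for differences that passed in no setting. In later-numbered pigs alone they turned for DLK1 (CF against non-CF 0.03, CF against HET 0.14, HET against WT -0.26), MEG3 (0.51 and 0.46 for the comparisons of CF), PEG3 (0.02 and 0.04), GRB10 (0.14 and 0.12), CDKN1C (0.03, -0.11 and, for HET against WT, 0.39) and PEG10 (HET against WT 0.03). In earlier-numbered pigs alone they turned for HET against WT in IGF2 (0.06) and PLAGL1 (0.02). With the numbering term MEG3 turned in CF against non-CF (0.04). On log2(TPM + 0.5) and log2(TPM + 0.1), CF against HET turned for IGF2 (0.06 on each) and PEG3 (0.01 on each), and HET against WT for DLK1 (-0.11 and -0.12) and GRB10 (0.00 on each, and -0.01 with upper-quartile normalization). With a library left out, CF against non-CF ranged from -0.18 to 0.07 for MEG3 and -0.08 to 0.03 for CDKN1C; CF against HET from -0.20 to 0.08 for IGF2, -0.31 to 0.03 for MEG3, -0.10 to 0.01 for PEG3, -0.07 to 0.01 for GRB10 and -0.05 to 0.15 for CDKN1C; and HET against WT from -0.04 to 0.07 for GRB10 and -0.21 to 0.01 for CDKN1C. The causes were not tested. Described values for CF against WT in later-numbered pigs were -0.30 for MEST, 0.18 for GRB10 and 0.27 for CDKN1C. With a library left out MEST ranged from -0.89 to -0.66 in CF against WT, the smallest without WT pig 12.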

Other observations

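MEG3 was higher where skeletal muscle markers were higher. The list of 4 markers summed to 2.16 to 4.35 TPM over the 23 libraries, and ACTA1 among them did not exceed 0.144 TPM. Its log2 sum had r = 0.67 with log2 CPM of MEG3 (permutation p = 0.000580, adjusted 0.0339) and rho = 0.57 (permutation p = 0.00560, adjusted 0.117), so that the relation passed by Pearson's r and did not pass by Spearman's rho. Without the 2 libraries farthest from the median of the marker sum r was 0.48, and it was 0.68 in the 13 earlier-numbered and 0.62 in the 10 later-numbered pigs. The pair was chosen after the values were seen, as 1 of 2 that passed by Pearson's r among 117 pairs of a member with a marker list, over which p was adjusted; the other, with the smaller p, rests on the sum of the whole proximal tubule list and is not reported here. With 4 markers of that list (LRP2, CUBN, SLC34A1 and SLC5A2), described without a test because they were chosen after the values were seen, IGF2 had r = -0.63 and rho = -0.64, with r = -0.71 without the 2 farthest libraries, -0.46 in the earlier-numbered and -0.62 in the later-numbered pigs.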
